A study of Mustela putorius furo with 2 samples.

Results

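The genes described are the collagens, the laminins and the ADAMTS family, taken as all rows of the ferret feature tables whose symbol is COL followed by a digit, LAMA, LAMB or LAMC followed by a digit, or begins with ADAMTS. They number 77 of 28156 features, of which 14296 carry a symbol, and comprise 41 collagen chains, 12 laminin chains, 19 ADAMTS proteases and 5 ADAMTS-like genes. Droplet single-nucleus RNA-seq was run on frozen somatosensory cortex of Mustela putorius furo, the ferret, whose cortex is folded. Both libraries carry the genotype label DCX knockout, whereas the series design text speaks of a knockdown. Doublecortin, the product of DCX, binds microtubules in young neurons on the move, and in humans its loss causes lissencephaly or a double cortex. The tissue of one library is labelled as the upper cortical band and that of its counterpart as the deeper band. There was thus 1 library per band, and no difference between bands has a replicate check or a test. Age, sex and the number of animals are not given by the labels, and wild-type tissue was not analysed here.

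Collagens and laminins are scaffold proteins of the extracellular matrix. Type IV collagens and laminin trimers, each made of an alpha, a beta and a gamma chain, build the basement membranes that sheathe brain vessels and underlie the pia, while fibrillar collagens give tensile strength and fibril-associated collagens coat their surface. ADAMTS proteases cut proteoglycans, procollagens and other matrix proteins, among them the lecticans of the perineuronal net, and the ADAMTS-like proteins share their binding modules but lack the protease domain.

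After removal of nuclei with under 500 genes and of called doublets, 6261 upper-band and 8150 deeper-band nuclei remained, with medians of 7992 and 4887.5 UMIs (unique molecular identifiers, one for each captured transcript). Clustering without the 77 genes gave 27 clusters, named from marker lists that hold none of them, so every class name means resemblance to a type. In the upper and the deeper band there were 3024 and 3424 excitatory-like, 1022 and 771 inhibitory-like, 389 and 807 astrocyte-like, 853 and 2067 oligodendrocyte-like, 126 and 193 oligodendrocyte-precursor-like, 47 and 66 microglia-like and 195 and 73 vascular-like nuclei. Another 4 clusters stayed unnamed, and 68 and 80 nuclei of the vascular cluster lay in subclusters led by excitatory neuron or oligodendrocyte markers and were set aside, although vascular marker UMIs were found in them too. Levels are CPM, the UMIs of a gene divided by those of all genes in the class and scaled in the usual way, and are compared for 1 gene at a time, never between genes. Ranges in brackets are 95% intervals that cover counting error only.

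The 77 genes took 130297 UMIs in the upper-band nuclei (0.249% of all) and 110053 in the deeper-band nuclei (0.206%). At least 50 UMIs over both libraries were found for 71 of them. The other 6 were ADAMTS7 with 34 UMIs, COL6A2 with 22, COL2A1 with 16, COL8A2 with 15, COL6A1 with 12 and COL1A1 with 1. The main chains of type I and type II collagen were therefore almost undetected in these nuclei, and these 6 genes are placed in no class.

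Each of the 71 genes was placed in the class with its highest mean CPM over the 2 libraries, with at least 10 UMIs required there. Vascular-like nuclei led for 26 genes, against 13.7% of all 16894 genes placed in the same way. Glia-like classes led for 23 genes (48.1% of all genes) and neuron-like classes for 22 (38.2% of all genes). The class was highest in each of the 2 libraries for 22 of the 26 vascular, 16 of the 23 glial and 12 of the 22 neuronal genes. No share over all genes was taken for these counts. Inhibitory-like nuclei led for 14 genes (17.8% of all genes), astrocyte-like for 9 (14.1%) and excitatory-like for 8 (20.4%). Oligodendrocyte-like and precursor-like nuclei led for 7 each (16.9% and 7.02%), and microglia-like for 0 (10.0%). The vascular count fell to 15 when nuclei were thinned to 1500 UMIs and to 12 when vascular nuclei were chosen one by one from their markers. Thinning left out nuclei under 1500 UMIs, and vascular-like nuclei had medians of 1156 and 1129 UMIs. The UMI minimums were unchanged, so a gene could leave the count for want of UMIs or because another class led. These were not counted apart, and no share over all genes was taken in these settings.

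The genes of each structural group were counted by the kind of class in which they were highest. Over all genes the shares were 13.7% vascular, 48.1% glial and 38.2% neuronal. Of 18 basement membrane genes, 10 were highest in vascular-like nuclei, 6 in neurons and 2 in glia. Of 18 ADAMTS proteases, 9 were highest in neurons, 6 in vascular-like nuclei and 3 in glia. The 9 fibrillar collagens were divided into 4 vascular, 4 glial and 1 neuronal gene, and the 9 fibril-associated collagens into 4 neuronal, 4 glial and 1 vascular gene. The 4 membrane-spanning collagens had 3 glial members and 1 vascular member. The groups are small, and these counts are descriptions without a test.

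**Figure D1:**
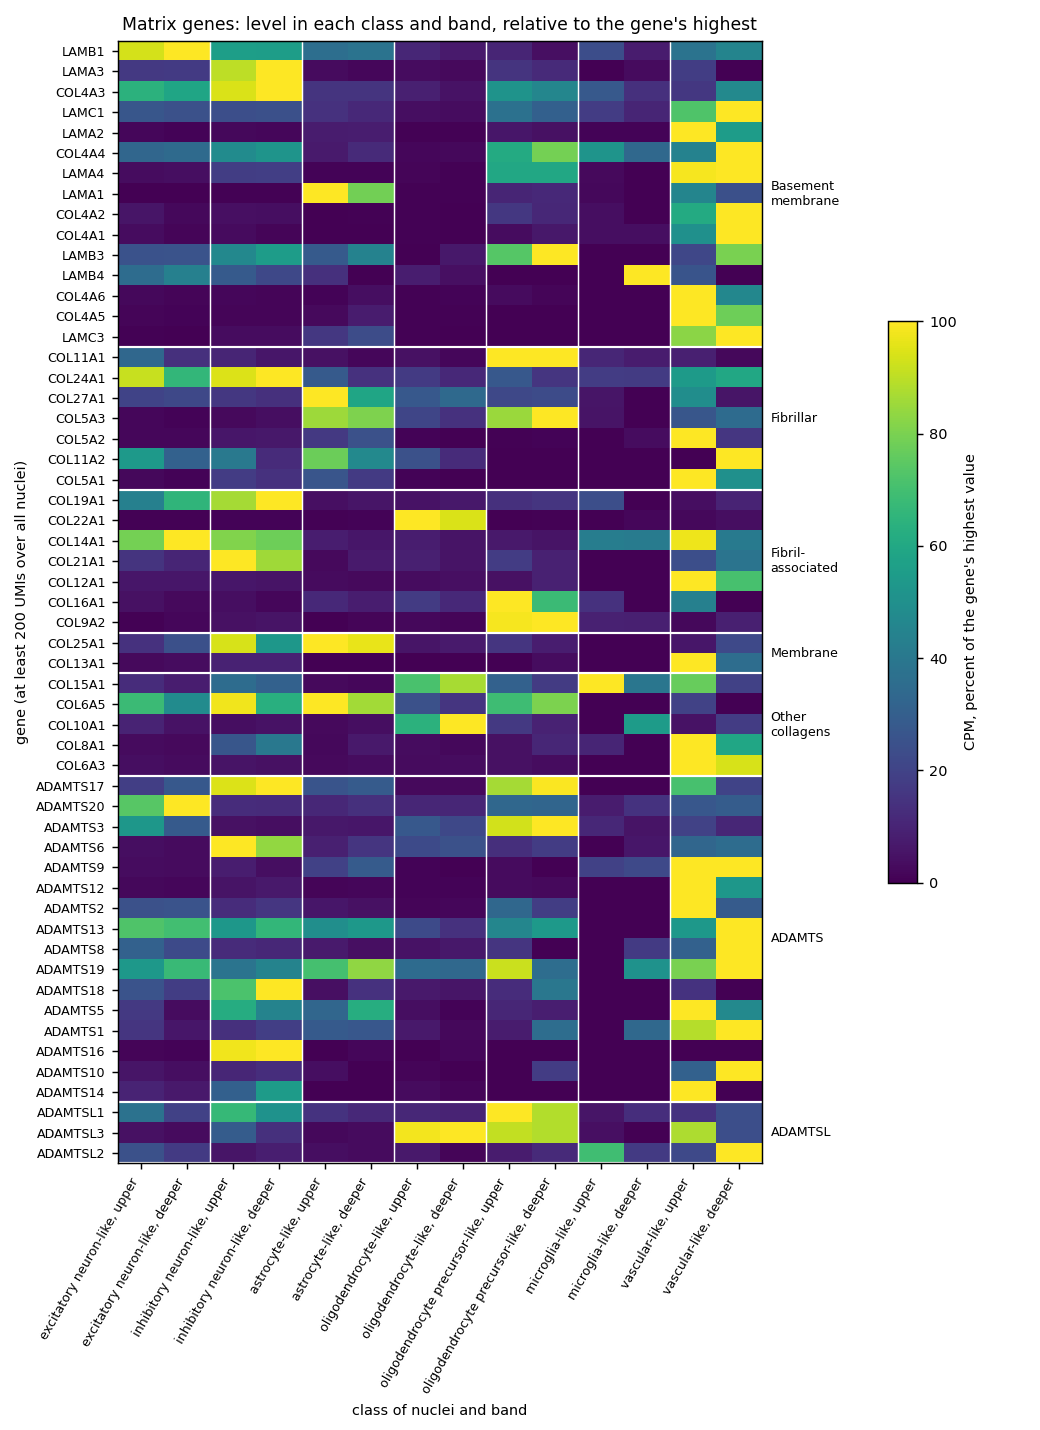
Rows are the collagen, laminin and ADAMTS genes with at least 200 UMIs, columns the 7 classes of nuclei in each band, and colour the CPM as a percent of the gene's highest value in any column. COL22A1 is near its highest value only in the 2 oligodendrocyte-like columns and ADAMTS16 only in the inhibitory-like columns. COL4A1 and COL4A2 are highest in the deeper-band vascular column (330 and 318 CPM). The upper-band vascular column is lower for both (166 and 194 CPM).

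Among laminin alpha chains, LAMA2, the chain of laminin-211 whose loss causes a congenital muscular dystrophy, was highest in vascular-like nuclei. Its level there was 3195 CPM (3002 to 3398) for the upper and 1766 CPM (1494 to 2072) for the deeper band. Astrocyte-like nuclei, the next class, had 243 and 250 CPM, so that the gap was 13.2-fold and 7.05-fold. LAMA2 was also measured in neurons, at 52.8 and 35.9 CPM in excitatory-like nuclei.

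LAMA1, the alpha chain of laminin-111, was an astrocyte-like gene. It stood at 624 CPM (580 to 670) in upper-band and 491 CPM (461 to 523) in deeper-band astrocyte-like nuclei, and at 285 and 153 CPM in vascular-like nuclei. A LAMA1 UMI was found in 74.8% and 64.1% of astrocyte-like nuclei, which had medians of 2801 and 2420 UMIs. In excitatory-like nuclei, a class not known for this chain, the shares were 2.08% and 1.58% at medians of 10890.5 and 10411 UMIs. With every nucleus thinned to 1500 UMIs, LAMA1 was seen in 59.1% and 48.1% of astrocyte-like and 0.365% and 0.117% of excitatory-like nuclei. The LAMA1 share thus remained far above that of excitatory-like nuclei at equal depth in both libraries.

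LAMA3, the alpha chain of laminin-332, best known from epithelial basement membrane, was highest in inhibitory-like nuclei. Its level there was 375 CPM (363 to 389) in upper-band and 417 CPM (401 to 434) in deeper-band nuclei, against 69.9 and 70.8 CPM in excitatory-like nuclei. Its partner chain LAMB3 stood at 6.88 and 8.13 CPM in inhibitory-like nuclei. A LAMA3 UMI was seen in 74.0% and 79.8% of inhibitory-like nuclei, whose median depth was 7633.5 and 7273 UMIs. It was seen in 2.81% and 1.79% of oligodendrocyte-like nuclei, which had a median of 2210 and 1869 UMIs. At 1500 UMIs per nucleus LAMA3 was seen in 39.3% and 43.6% of inhibitory-like and 1.55% and 1.70% of oligodendrocyte-like nuclei.

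LAMA4, the alpha chain of laminin-411 of vessel walls, stood at 511 and 518 CPM in vascular-like and at 311 and 311 CPM in precursor-like nuclei. LAMA5, the alpha chain of laminin-511, had 123 UMIs in all. Of the beta and gamma chains, LAMB1 was highest in excitatory-like nuclei, at 146 and 156 CPM against 87.7 and 86.7 CPM in inhibitory-like nuclei. LAMC1, the gamma chain of most laminins, was highest in vascular-like nuclei, at 247 and 341 CPM, and stood at 92.0 and 84.7 CPM in excitatory-like nuclei. LAMB2, the beta chain of synaptic and vascular laminins, had 68 UMIs in all, of which 18 were in vascular-like nuclei.

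COL4A1 and COL4A2 form the common network of type IV collagen. COL4A1 stood at 166 CPM (124 to 217) in upper-band and 330 CPM (219 to 476) in deeper-band vascular-like nuclei. Precursor-like nuclei, the next class, had 10.8 and 21.0 CPM of COL4A1, and astrocyte-like nuclei 1 UMI and 0 UMIs. COL4A2 stood at 194 and 318 CPM in vascular-like nuclei, against 51.4 and 35.8 CPM in precursor-like nuclei, again the next class. Astrocyte-like nuclei had 1 and 3 UMIs of COL4A2. COL4A5 and COL4A6 were vascular too, at 166 and 129 CPM and at 179 and 82.4 CPM.

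COL4A3 and COL4A4 are chains mutated in Alport syndrome, and only COL4A3 was placed in a neuron-like class. COL4A3 was highest in inhibitory-like nuclei, at 165 and 175 CPM, followed by excitatory-like nuclei at 112 and 102 CPM. COL4A4 stood at 68.2 and 73.2 CPM in inhibitory-like, 86.6 and 112 CPM in precursor-like and 62.7 and 141 CPM in vascular-like nuclei, the last, in which it was placed, from 32 UMIs. Its counting intervals in precursor-like and vascular-like nuclei overlap, so the order of these 2 classes is not resolved.

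Type IV chains are encoded as head-to-head pairs in mammals, and the pairs followed each other. Across the 27 clusters the log2(CPM + 1) values of COL4A1 and COL4A2 had a Pearson r of 0.92, those of COL4A3 and COL4A4 0.86 and those of COL4A5 and COL4A6 0.81. For comparison, ADAMTS1 and ADAMTS5, another pair that lies side by side in mammals, had 0.41. These values are descriptions over clusters that share 2 libraries and differ in depth. Whether counting used the strand is not given in the sources used here, so reads of adjoining transcripts within a pair could be mixed.

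Oligodendrocyte-like nuclei held the most selective fibril-associated collagen. COL22A1, known from tissue junctions such as that of muscle and tendon, stood there at 1319 CPM (1270 to 1370; 2724 UMIs) in the upper and 1243 CPM (1209 to 1277; 5176 UMIs) in the deeper band. The next class, vascular-like nuclei, had 28.2 and 47.1 CPM, and precursor-like nuclei had 1 and 3 UMIs. A COL22A1 UMI was present in 90.5% and 87.3% of oligodendrocyte-like nuclei, and in 84.9% and 81.2% after thinning. In excitatory-like nuclei the shares were 9.79% and 8.35%, or 1.66% and 0.936% after thinning.

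The COL22A1 level was similar in both oligodendrocyte-like clusters, at 1349 and 1281 CPM in one and 1172 and 1168 CPM in the other. In an unnamed cluster led by ABCA9 and ENPP6, ENPP6 being a gene of newly formed oligodendrocytes, COL22A1 stood at 1473 and 1292 CPM. It stood at 750 and 617 CPM in an unnamed cluster with astrocyte and oligodendrocyte markers and at 737 and 658 CPM in an unnamed cluster with microglia and oligodendrocyte markers. Doublets in these clusters were not tested beyond the doublet caller.

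Other collagens of oligodendrocyte-like nuclei were lower. COL17A1, a membrane-spanning collagen of hemidesmosomes, stood at 14.5 and 12.7 CPM, against 0.250 and 0.264 CPM in excitatory-like nuclei. COL10A1, the network collagen of hypertrophic cartilage, stood at 42.1 and 65.5 CPM. ADAMTS4, an aggrecanase that cuts lecticans, had 14.5 and 16.6 CPM from 30 and 69 UMIs. ADAMTSL3 was shared with precursors, at 287 and 293 CPM in oligodendrocyte-like and 265 and 259 CPM in precursor-like nuclei, a difference within the counting intervals.

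Precursor-like nuclei led for fibrillar and fibril-associated chains that form heterotypic fibrils in cartilage. COL11A1, a regulator of fibril diameter, stood at 1123 CPM (1018 to 1237) in the upper and 1119 CPM (1026 to 1218) in the deeper band. COL9A2, a chain of type IX collagen, stood at 133 and 135 CPM, with 1 UMI in each library in microglia-like nuclei, the next class. COL16A1 stood at 86.6 and 58.9 CPM, and COL5A3 at 200 and 236 CPM, close to its astrocyte-like level of 201 and 190 CPM. ADAMTS3, a procollagen N-proteinase that also processes VEGF-C, stood at 206 and 221 CPM, and ADAMTSL1 at 636 and 562 CPM.

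Astrocyte-like nuclei were led by LAMA1 and by COL27A1, a fibrillar collagen of cartilage, at 211 and 124 CPM. COL25A1, a membrane-spanning collagen whose shed form was found in amyloid plaques, stood at 53.0 and 51.3 CPM in astrocyte-like and 49.8 and 28.1 CPM in inhibitory-like nuclei. ADAMTSL5 stood at 21.5 and 20.1 CPM. Among the 9 genes placed with astrocytes, COL23A1, COL11A2 and COL9A3 rested on 11, 22 and 26 UMIs there.

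Inhibitory-like nuclei led for 7 of the proteases. ADAMTS16, a protease that cuts fibronectin, was the most selective, at 27.2 and 27.8 CPM (233 and 171 UMIs), against 0.417 and 0.316 CPM in excitatory-like nuclei (15 and 12 UMIs). ADAMTS17, mutated in a Weill-Marchesani-like syndrome, stood at 336 and 354 CPM in inhibitory-like and at 306 and 351 CPM in precursor-like nuclei, so that the counting intervals of these classes overlapped in both bands. ADAMTS6 stood at 200 and 168 CPM, and ADAMTS18 at 15.2 and 21.1 CPM. ADAMTS5, an aggrecanase, stood at 15.5 and 11.2 CPM in inhibitory-like nuclei and at 25.1 and 11.8 CPM in vascular-like nuclei.

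The fibril-associated collagens COL19A1 and COL21A1 were inhibitory-like as well. COL19A1, which is known from hippocampal interneurons and their synapses, stood at 308 and 356 CPM, against 155 and 233 CPM in excitatory-like nuclei. COL21A1 stood at 92.0 and 78.9 CPM, against 21.9 and 35.3 CPM in vascular-like nuclei. Excitatory-like nuclei led clearly for LAMB1 and for ADAMTS20, a versican-cutting protease of melanoblast migration, which stood at 119 and 162 CPM against 54.1 and 52.6 CPM in precursor-like nuclei. COL14A1, a fibril-associated collagen of tendon and skin, was highest there only in the deeper band, at 91.6 and 116 CPM, with 93.5 and 89.9 CPM in inhibitory-like nuclei.

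Within the neurons the genes peaked in different clusters. Of 53 genes with at least 100 UMIs in excitatory-like nuclei, 35 were highest in the same cluster in both libraries, as were 36.6% of all genes with that many UMIs there. In inhibitory-like nuclei 28 of 40 were, with 47.4% of all genes. A cluster led by TRPC7 and CDHR1 was the highest for 11 of the 53 excitatory genes (13% of all genes), and a cluster led by NPR3 and CRHR2, with FEZF2, for another 11 (17.8% of all genes). Among inhibitory-like clusters, one led by LRRC38 and MYO18B was highest for 12 of the 40 genes (21.2% of all genes) and one with CALB2 and VIP for 9 (18.9%). One with CHODL, NOS1 and NPY was highest for 8 (30%), one with COCH and RELN for 6 (16.4%) and one with CALB1 and SST for 5 (13.5%). These shares are descriptions, and none is read as particular to these genes.

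**Figure D2:**
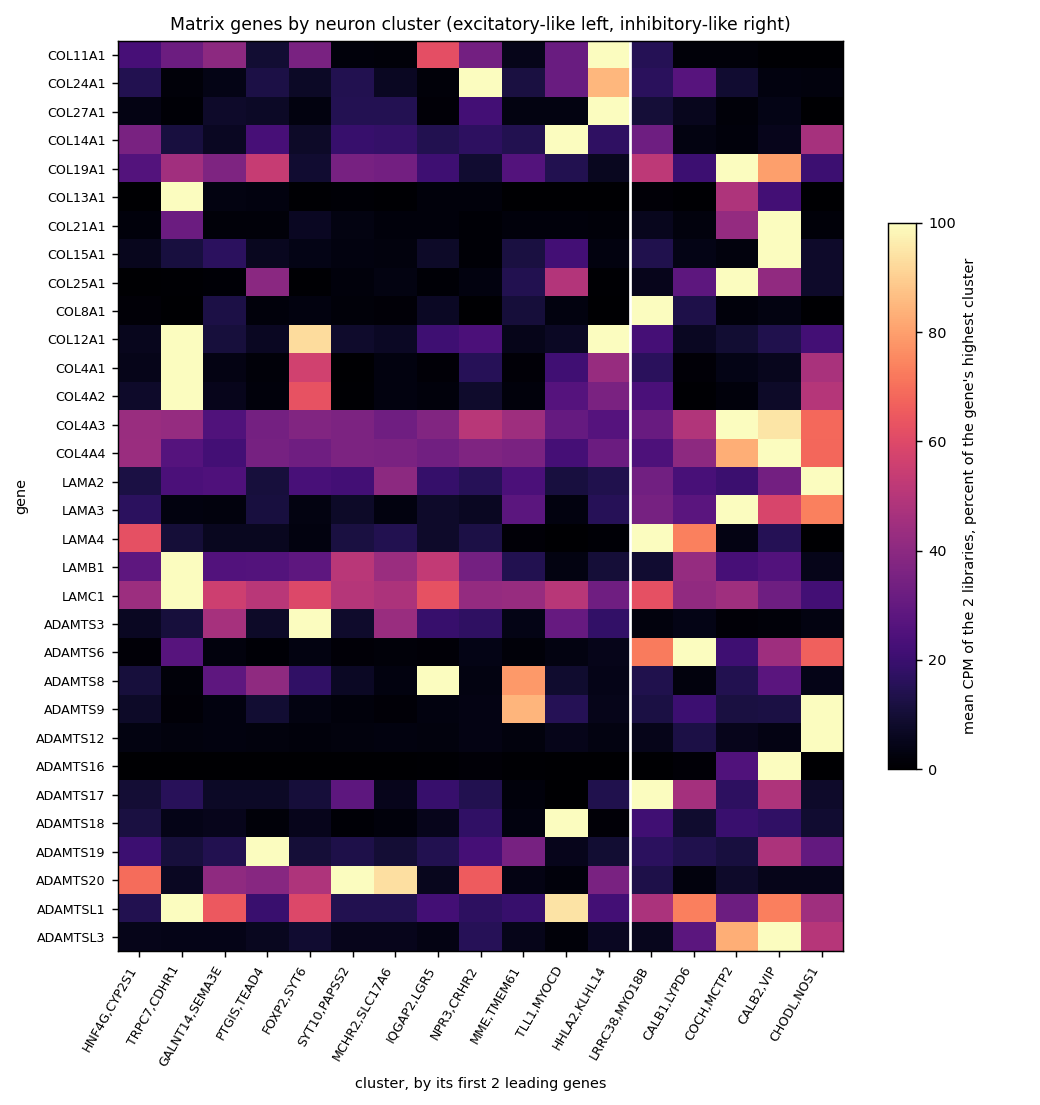
Rows are 32 collagen, laminin and ADAMTS genes, columns the excitatory-like and inhibitory-like clusters and an unnamed cluster led by HHLA2 and KLHL14, each named by its leading genes. Colour gives the mean CPM of both libraries as a percent of the gene's highest value. COL13A1 is near its highest value in the TRPC7 and CDHR1 cluster, ADAMTS3 in the FOXP2 and SYT6 cluster and ADAMTS16 in the CALB2 and VIP cluster.

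The TRPC7 and CDHR1 cluster, of 85 and 90 nuclei, held neuronal basement membrane and membrane collagens. COL13A1, a membrane-spanning collagen that organises the neuromuscular junction, stood there at 40.6 and 69.0 CPM, with 1.16 and 2.37 CPM in the next cluster. COL4A1 stood there at 72.4 and 79.3 CPM and in the FOXP2 and SYT6 cluster at 44.5 and 41.5 CPM. COL4A2 stood at 103 and 105 CPM and at 69.7 and 61.4 CPM in the same clusters. LAMB1 reached 305 and 461 CPM and LAMC1 184 and 153 CPM in the TRPC7 and CDHR1 cluster. COL13A1 was also among that cluster's leading genes, although it took no part in the clustering.

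Other excitatory-like clusters had their own members. ADAMTS3 reached 320 and 369 CPM in the FOXP2 and SYT6 cluster. COL24A1, a fibrillar collagen of bone, reached 749 and 941 CPM in the NPR3 and CRHR2 cluster, and COL11A1 841 and 817 CPM in the IQGAP2 and LGR5 cluster. ADAMTS9, a versican-cutting protease, reached 102 and 124 CPM in the MME and TMEM61 cluster, and ADAMTS19 51.0 and 49.0 CPM in the PTGIS and TEAD4 cluster. LAMA4 reached 84.7 and 101 CPM in the HNF4G and CYP2S1 cluster, with 25.6 and 16.9 CPM in the next. COL14A1 reached 532 and 625 CPM in a cluster led by TLL1 and MYOCD that held only 16 and 18 nuclei.

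Inhibitory-like clusters differed in the same way. LAMA3 reached 819 and 848 CPM in the COCH and RELN cluster. COL8A1, a network collagen of vessel walls and cornea, reached 75.0 and 102 CPM in the LRRC38 and MYO18B cluster, with 8.04 and 14.7 CPM in the CALB1 and SST cluster. ADAMTS17 reached 538 and 561 CPM in the LRRC38 and MYO18B cluster. In the CALB2 and VIP cluster ADAMTS16 stood at 197 and 116 CPM, COL21A1 at 411 and 322 CPM and COL15A1 at 97.9 and 99.2 CPM. ADAMTS5 reached 41.4 and 34.0 CPM in the CALB1 and SST cluster. ADAMTS12 reached 325 and 571 CPM in the CHODL and NOS1 cluster, which held 22 and 12 nuclei.

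An unnamed cluster led by HHLA2 and KLHL14, of 157 and 29 nuclei, had 3 fibrillar collagens at high levels. COL11A1 stood there at 1436 and 1243 CPM, COL24A1 at 873 and 565 CPM and COL27A1 at 567 and 399 CPM. All 3 levels were above those of the classes in which these genes were placed, in both libraries. COL11A1 stood at 1123 and 1119 CPM in precursor-like and COL24A1 at 130 and 138 CPM in inhibitory-like nuclei. COL27A1 stood at 211 and 124 CPM in astrocyte-like nuclei. Unnamed clusters took no part in the placing of genes. This cluster had 7 of 12 excitatory neuron markers raised, but its leading genes held more markers of another class. By the naming rule no class name was therefore given to it.

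The vascular-like class held 3 named subtypes in unequal shares between the bands. Endothelial-like nuclei numbered 63 and 36, mural-like nuclei 16 and 20, and fibroblast-like or leptomeningeal-like nuclei 79 and 11, or 40.5% and 15.1% of the class. A subcluster led by ACTA2 and TPM2 with 37 and 6 nuclei was not named. The summed level of the endothelial markers in the class was 5520 CPM in the upper and 12089 CPM in the deeper band, that of the mural markers 990 and 1118 CPM, and that of the fibroblast markers 3020 and 918 CPM. Of 15 fibroblast markers in the files, 15 had a UMI in upper-band nuclei and 9 in deeper-band nuclei, where CEMIP, FOXC1, MGP, SLC22A6, IGF2 and SLC47A1 were at 0.

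With both libraries summed, 13 of the genes had at least 50 UMIs in vascular-like nuclei. Fibroblast-like nuclei were the highest subtype for 8 of these, mural-like for 3 and endothelial-like for 2, against 33%, 31.6% and 35.4% of all 2156 genes with as many UMIs there. LAMA2 stood at 5057 CPM in fibroblast-like, 2409 CPM in mural-like and 445 CPM in endothelial-like nuclei. The endothelial-like value rested on 57 UMIs of the upper band and 1 of the deeper band. ADAMTS12, a protease that degrades COMP, stood at 1084 CPM in fibroblast-like nuclei and 38.4 CPM in endothelial-like nuclei, with 0 UMIs in mural-like nuclei. COL5A2, COL4A6 and COL4A5 were also highest in fibroblast-like nuclei, at 503, 291 and 275 CPM. In endothelial-like nuclei they stood at 131, 30.7 and 30.7 CPM, while COL5A2 and COL4A5 had 4 UMIs each in mural-like nuclei and COL4A6 had 0, too few to order these 2 subtypes.

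ADAMTS9 was an endothelial-like gene, at 983 CPM (820 to 1170) against 71.6 CPM in mural-like and 101 CPM in fibroblast-like nuclei. COL4A2 was the other, at 346 CPM in endothelial-like, 239 CPM in mural-like and 138 CPM in fibroblast-like nuclei. COL4A1 stood at 330 CPM in endothelial-like and 334 CPM in mural-like nuclei, which its counting intervals do not separate. LAMA4 was highest in mural-like nuclei, at 1145 CPM against 645 CPM in fibroblast-like and 161 CPM in endothelial-like nuclei.

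**Figure D3:**
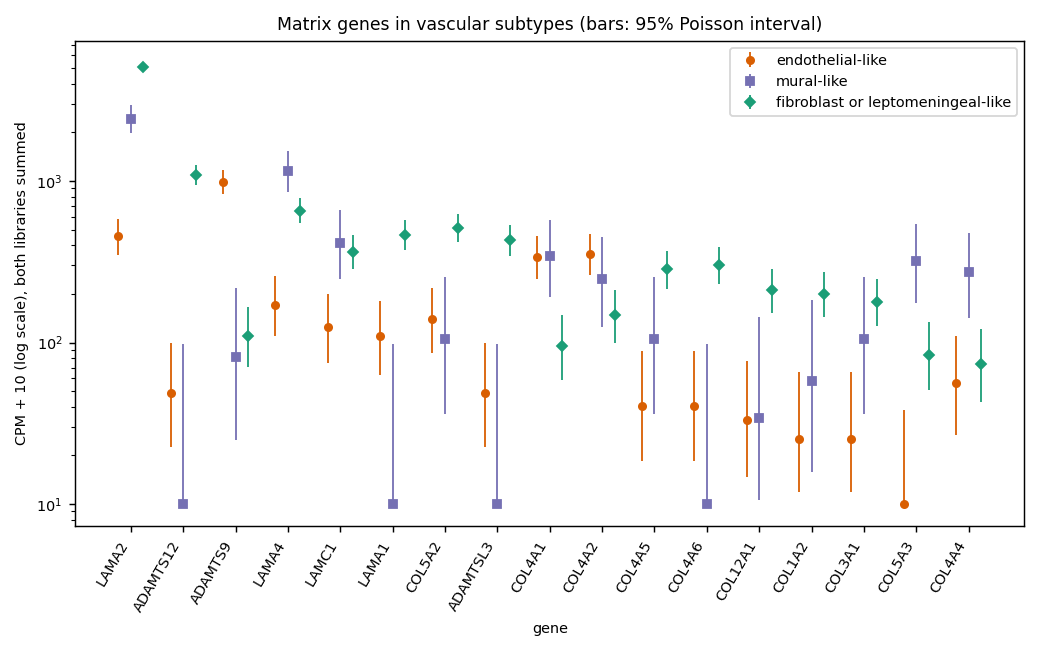
Points give the CPM plus 10, on a log axis, of 17 collagen, laminin and ADAMTS genes in the endothelial-like, mural-like and fibroblast-like nuclei of both libraries summed, with 95% Poisson intervals. ADAMTS9 is highest in endothelial-like nuclei, LAMA4 in mural-like nuclei and LAMA2 and ADAMTS12 in fibroblast-like nuclei.

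Between the bands, over all nuclei, 6 of the 71 genes differed by at least 2-fold, against 2.68% of all genes, and each was lower in the deeper band, as were 1.87% of all genes. COL3A1, the fibrillar collagen of vessel walls and meninges, had 52 and 8 UMIs, and its log2 ratio of deeper to upper band was -2.73 (-4.01 to -1.64). Of its 60 UMIs, 48 lay in the vascular-like class. There COL3A1 stood at 125 CPM (upper) and 94.2 CPM (deeper), the latter on at most 8 UMIs. This class held 3.11% of all nuclei in the upper library and 0.896% in the deeper one. How much of the COL3A1 ratio came from these shares was not tested. COL1A2, a chain of type I collagen, had a log2 ratio of -1.41, COL4A2 of -1.33, COL4A1 of -1.31, ADAMTS5 of -1.26 and COL11A1 of -1.24. The median log2 ratio was -0.27 over the 71 genes and -0.01 over all genes. In such sums fewer nuclei of a type and less RNA per nucleus cannot be told apart. Band and library also cannot be told apart.

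By structure, the fibrillar collagens summed to 572 CPM for the upper and 311 CPM for the deeper library, with a log2 ratio of -0.88 (-0.90 to -0.85). The ADAMTS-like genes had -0.70 and the basement membrane genes, at 674 and 575 CPM, -0.23 (-0.25 to -0.21). The fibril-associated collagens were the 1 group with a higher sum in the deeper band, at 385 and 483 CPM and a log2 ratio of 0.32. These sums are dominated by their most abundant genes, such as COL11A1 with 17375 and 7493 UMIs among the fibrillar collagens.

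In excitatory-like nuclei 60 of the genes had at least 50 UMIs, and 7 differed by at least 2-fold, against 2.95% of all genes. Of these, 6 were lower in the deeper band (2.17% of all genes) and 1 was higher (0.781%). The log2 ratio of ADAMTS5, from 4.14 CPM in upper-band to 0.791 CPM in deeper-band nuclei, was -2.39 (-3.01 to -1.81). COL4A2 stood at 17.5 and 6.35 CPM (-1.46), ADAMTS1, another aggrecanase, at 5.39 and 2.11 CPM (-1.35), and COL4A1 had 396 and 169 UMIs (-1.30). COL11A1 stood at 376 CPM (369 to 382) and 156 CPM (152 to 160), a log2 ratio of -1.27 (-1.31 to -1.22). COL5A3 had -1.08, and COL9A2 was the gene that was higher in the deeper band, at 0.806 and 2.16 CPM (1.42).

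The excitatory-like clusters were present in different shares in the 2 libraries. The FOXP2 and SYT6 cluster made up 17.9% of upper-band and 3.48% of deeper-band excitatory-like nuclei, the IQGAP2 and LGR5 cluster 16.6% and 4.88%, and the GALNT14 and SEMA3E cluster 14.2% and 4.06%. The SYT10 and PAPSS2 cluster made up 7.57% and 31.4%, and the PTGIS and TEAD4 cluster 8.80% and 24.2%. COL11A1 stood at 841 and 817 CPM in the IQGAP2 and LGR5 cluster, 561 and 511 CPM in the GALNT14 and SEMA3E cluster and 433 and 518 CPM in the FOXP2 and SYT6 cluster. In the SYT10 and PAPSS2 cluster COL11A1 stood at 33.3 and 29.4 CPM.

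**Figure D4:**
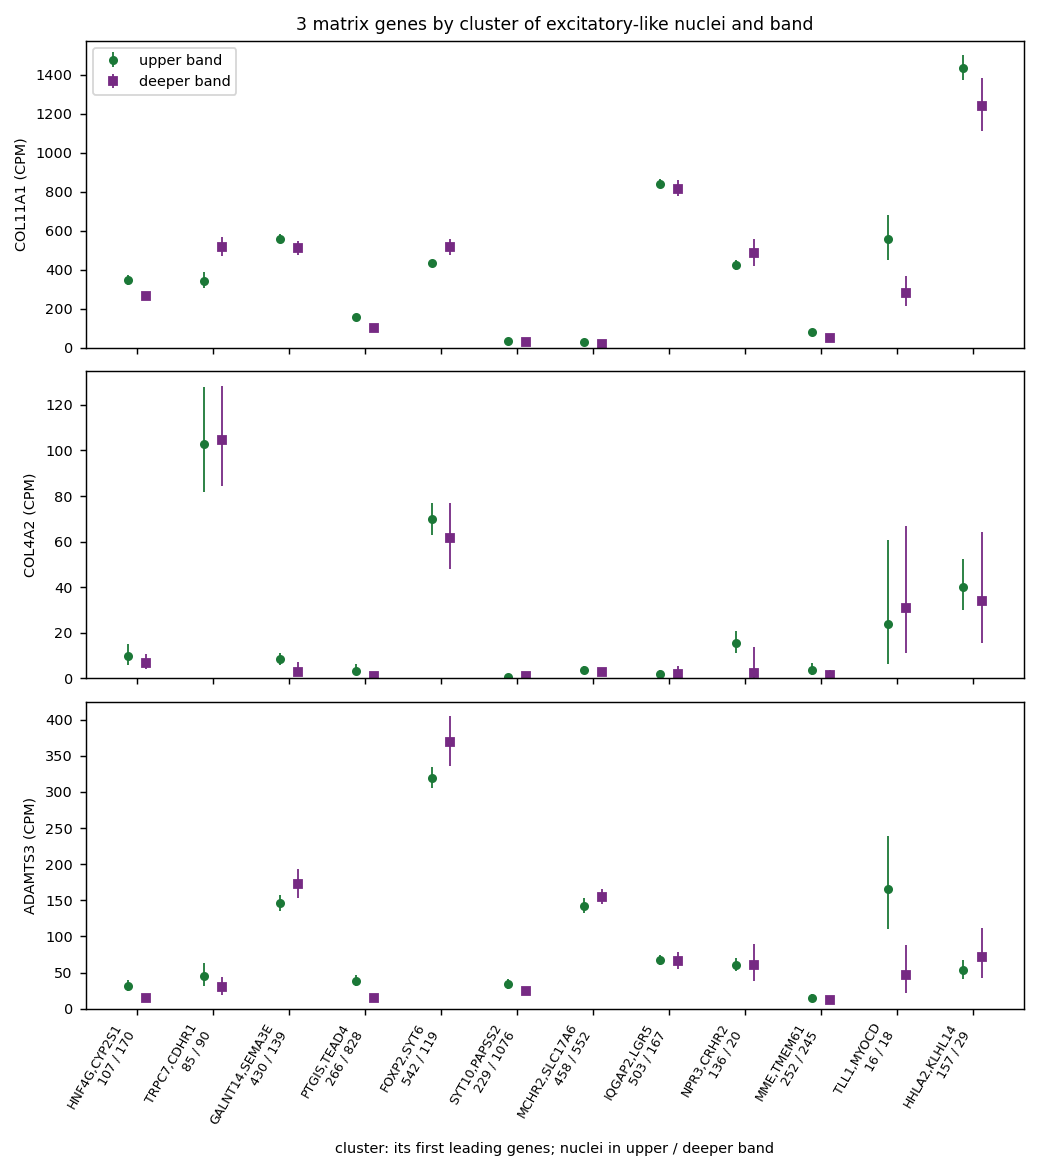
Points give the CPM of COL11A1, COL4A2 and ADAMTS3 in each excitatory-like cluster and in the HHLA2 and KLHL14 cluster, for the upper and the deeper band. For COL11A1 the 2 bands lie close together in the IQGAP2 and LGR5 cluster (841 and 817 CPM), and the clusters lie far apart.

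When each cluster of the deeper band was given its share of the upper band's UMIs, a calculation chosen after the data were seen, 2 of the 60 genes differed by at least 2-fold, against 1.52% of all genes. None of the 60 was past 2-fold both with and without the weighting. The COL11A1 log2 ratio went from -1.27 to -0.01 (-0.07 to 0.04), ADAMTS5 from -2.39 to -0.22 (-0.82 to 0.37), COL4A1 to -0.11 and COL4A2 to -0.33. ADAMTS1 went to 0.06, COL5A3 to 0.54 and COL9A2 to 0.18. Over the 60 genes the median size of the log2 ratio was 0.44 before and 0.20 after weighting.

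Within single clusters COL11A1 did not move one way. Its log2 ratio was above 0 with its interval in 2 of 11 clusters, and below 0 in 6. It was 0.26 in the FOXP2 and SYT6 cluster, -0.04 in the IQGAP2 and LGR5 cluster and -0.64 in the PTGIS and TEAD4 cluster. ADAMTSL1, by contrast, was lower in the deeper band in 9 of 11 clusters and in none higher by its interval, with a log2 ratio of -0.96 before and -0.24 after weighting.

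COL12A1, a fibril-associated collagen of tendon and a partner of tenascins, was the main gene whose difference appeared on weighting. It stood at 7.17 and 6.80 CPM in excitatory-like nuclei, a log2 ratio of -0.08, which became 1.18 (0.89 to 1.47). It stood at 20.1 and 62.2 CPM in the FOXP2 and SYT6 cluster (112 and 75 UMIs), and at 4.51 and 14.1 CPM in the IQGAP2 and LGR5 cluster (27 and 27 UMIs). In the TRPC7 and CDHR1 cluster it stood at 24.1 and 64.4 CPM (19 and 56 UMIs). COL12A1 was thus 2-fold or more higher in the deeper band in each of the 3 clusters where it had at least 50 UMIs. COL18A1, the source of endostatin, went from -0.43 to 1.10 (0.38 to 1.82) on 46 and 36 UMIs.

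**Figure D5:**
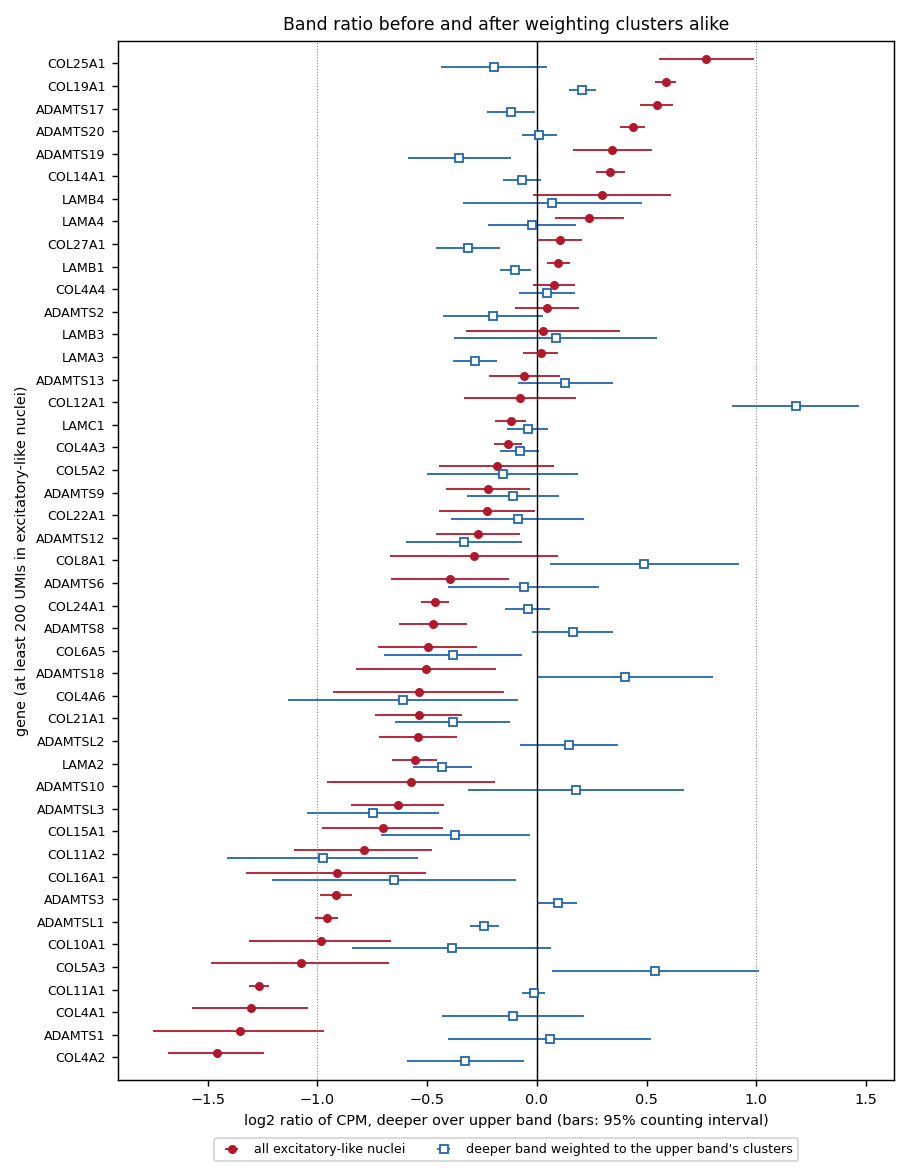
For each gene with at least 200 UMIs in excitatory-like nuclei, points give the log2 ratio of deeper to upper band as measured and after weighting to the upper band's clusters, with 95% counting intervals. COL11A1 moves from -1.27 to -0.01, and COL12A1 from -0.08 to 1.18.

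Other genes differed little between bands in excitatory-like nuclei. LAMA3 had a log2 ratio of 0.02, LAMB3 of 0.03, ADAMTS2, a procollagen N-proteinase, of 0.05 and ADAMTS13, the protease of von Willebrand factor, of -0.06. After weighting these were -0.28 (-0.38 to -0.18), 0.09, -0.20 and 0.13, so that LAMA3 no longer lay near 0. Counting intervals held 0 for 21 of the 60 genes, lay below 0 for 29 and above 0 for 10. The same counts were not taken over all genes, so they are not read as particular to these genes.

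In inhibitory-like nuclei 4 of 50 genes differed by at least 2-fold, against 1.22% of all genes, and each was lower in the deeper band (0.724% of all genes). ADAMTS9, with 30.2 and 13.3 CPM, had a log2 ratio of -1.18 (-1.56 to -0.82). ADAMTSL3 stood at 84.6 and 41.0 CPM (-1.05), COL4A1 at 9.21 and 4.55 CPM (-1.02) and COL11A2 at 4.78 and 1.46 CPM (-1.71) on 41 and 9 UMIs. After the same weighting the 4 ratios were -1.15, -1.05, -1.11 and -1.69, with 1.19% of all genes past 2-fold. Other settings ended some of these calls. Thinned to 1500 UMIs, ADAMTS9 had -1.84 and ADAMTSL3 -0.98, while COL4A1 (-1.69) and COL11A2 (-1.60) were left with 21 and 15 UMIs, under the minimum of 50. Without doublet removal COL4A1 had -1.31, but ADAMTS9 -0.51, ADAMTSL3 -0.87 and COL11A2 -0.97.

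For ADAMTS9 and ADAMTSL3 the difference was unequal among clusters. ADAMTS9 stood at 46.3 and 8.33 CPM in the CALB1 and SST cluster, a log2 ratio of -2.48, and at 17.8 and 15.2 CPM in the LRRC38 and MYO18B cluster, where it was -0.22. ADAMTSL3 stood at 212 and 59.7 CPM in the COCH and RELN cluster (-1.83) and at 200 and 127 CPM in the CALB2 and VIP cluster (-0.65). The leading inhibitory-like gene LAMA3 had a log2 ratio of 0.15 (0.08 to 0.23), and ADAMTS16 of 0.03.

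In glia the band differences were few. Among astrocyte-like nuclei 1 of 20 genes passed 2-fold (1.31% of all genes), among oligodendrocyte-like nuclei 1 of 23 (1% of all genes) and among precursor-like nuclei 0 of 14 (1.39% of all genes), where all 14 intervals held 0. The share of all genes whose interval held 0 in precursor-like nuclei was not taken. In microglia-like nuclei none of the 77 genes had 50 UMIs. The gene was COL11A1 in both, at 50.6 and 20.1 CPM in astrocyte-like nuclei and 51.8 and 20.7 CPM in oligodendrocyte-like nuclei, a log2 ratio of -1.33 in each. These ratios lay near the -1.24 of COL11A1 over all nuclei of the libraries, in which excitatory-like nuclei held most of its UMIs, while in precursor-like nuclei it was -0.01. The share of nuclei with a COL11A1 UMI after thinning was 7.22% and 2.79% in astrocyte-like, 7.12% and 3.45% in oligodendrocyte-like and 84.0% and 80.5% in precursor-like nuclei. Free RNA was not removed, and its part in the COL11A1 counts of astrocyte-like and oligodendrocyte-like nuclei was not tested.

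In astrocyte-like nuclei LAMA1 had a log2 ratio of -0.35 and COL27A1 of -0.77. ADAMTS9 stood at 72.1 and 108 CPM there, a log2 ratio of 0.58. A cluster led by CD44 and GFAP held 2 upper-band and 80 deeper-band nuclei, and ADAMTS9 stood at 527 CPM in its deeper-band nuclei. In the other astrocyte-like cluster ADAMTS9 stood at 67.4 and 76.2 CPM. In oligodendrocyte-like nuclei the ratio of COL22A1 was -0.09 and that of COL10A1 0.64 (0.28 to 1.00).

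In vascular-like nuclei 4 of 13 genes differed by at least 2-fold, against 16.7% of all genes, and each was lower in the deeper band (12% of all genes). COL5A2 had 119 and 5 UMIs, a log2 ratio of -2.66 (-4.31 to -1.40). ADAMTSL3 had 82 and 6 UMIs (-1.86), ADAMTS17 80 and 6 UMIs (-1.83) and COL4A6 57 and 7 UMIs (-1.12, with an interval of -2.49 to 0.02). When vascular nuclei were chosen one by one from their markers, ADAMTS17 had a log2 ratio of 0.03 and ADAMTSL3 of -0.29, both within 2-fold, while COL5A2 had -3.73 and COL4A6 -2.19. All 4 were highest in fibroblast-like nuclei, which were 79 in the upper and 11 in the deeper band. Within these nuclei 3 of the 4 genes had a lower value in the deeper band, on 3 UMIs or fewer there. COL5A2 stood at 530 and 195 CPM (92 and 3 UMIs) and ADAMTSL3 at 443 and 195 CPM (77 and 3 UMIs). ADAMTS17 stood at 380 CPM (66 UMIs) in the upper band and had 0 UMIs in the deeper band, which allows up to 195 CPM, the level of 3 counts. COL4A6 stood at 288 and 326 CPM. LAMA2 had a log2 ratio of -0.86 over the class. Within fibroblast-like nuclei it stood at 4986 and 5861 CPM and within mural-like nuclei at 2298 and 2515 CPM. In the other subclusters LAMA2 was lower in the deeper band. It stood at 647 and 23.7 CPM in endothelial-like nuclei (57 and 1 UMIs). In the unnamed subcluster it stood at 1351 and 842 CPM (50 and 5 UMIs). COL4A1 was 0.99 (0.27 to 1.68) and COL4A2 0.71, and ADAMTS9 and LAMA4 were 0.00 and 0.02.

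Genes that act with these proteins were taken from 5 lists. All 5 ranked basement membrane partners, which include the nidogens, perlecan and agrin, were highest in vascular-like nuclei, as were 5 of 13 collagen and laminin receptors and 5 of 16 genes of collagen synthesis and crosslinking, against 13.7% of all genes. Of 10 ADAMTS substrates and perineuronal net genes 8 were highest in glia (48.1% of all genes) and 2 in neurons (38.2%). Over all nuclei none was 2-fold higher in the deeper band, and the 4 of 49 that were 2-fold lower, against 1.87% of all genes, were PCOLCE, an enhancer of procollagen cleavage (-1.87, 43 and 12 UMIs), NID1, a linker of laminin and type IV collagen (-1.60), RELN, a secreted guide of migrating neurons that ADAMTS3 cleaves (188 and 74.0 CPM, -1.34), and A2M, a protease inhibitor (104 and 53 UMIs). In excitatory-like nuclei 2 of 15 genes of collagen synthesis and crosslinking were 2-fold lower in the deeper band, against 2.17% of all genes. PLOD2, a collagen lysyl hydroxylase and 1 of these 2, stood at 18.0 and 5.30 CPM (-1.76), without weighting for the clusters' unequal shares. In vascular-like nuclei the integrin chains ITGA1 and ITGA6 stood at 1075 and 2248 CPM (1.07) and at 316 and 753 CPM (1.25). There 16.7% of all genes were past 2-fold in either direction, and the subtypes differed in share between the bands.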

How the data were processed

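The deposited files are UMI count matrices of 2 droplet single-nucleus libraries, with whole-number counts per gene and barcode, and per the file headers they were written with software version 3.1.0. The submitters' processing notes name Cell Ranger 2.1.1 and 6.2.1 without role or order. Genome build, aligner settings, strand and the treatment of intronic reads are not given in the sources used here. The matrices held 7151 barcodes and 66253015 UMIs (upper band) and 9694 barcodes and 78352064 UMIs (deeper band), with 24 barcodes in common.

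Nuclei with at least 500 genes were kept. Scrublet, run in scanpy 1.11.5 with the cut-off it chose itself and 0.8% doublets assumed for each 1000 nuclei, called 830 of 7091 and 1458 of 9608 nuclei doublets (11.7% and 15.2%, with 5.67% and 7.69% expected), which were removed. Both libraries were clustered together without the 77 genes (2000 variable genes, 30 principal components, 15 neighbours, Leiden resolution 1; igraph 0.11.9, scikit-learn 1.9.0). Clusters were named from marker lists by a scoring rule set with the data in view, and the vascular cluster was clustered again. Oligodendrocyte-like nuclei lay in 2 clusters, of which the larger held 75.1% of the upper-band and 56.5% of the deeper-band nuclei. Free RNA was not corrected.

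UMIs were summed per library and class, scaled to CPM and given exact Poisson intervals. Ratios have exact conditional binomial intervals and shares Clopper-Pearson intervals (scipy 1.17.1, numpy 2.4.6, pandas 2.3.3). Reads were collapsed to UMIs by the authors, and intervals cover counting error only. Shares were also computed after thinning to 1500 UMIs, with nuclei under that number left out. The scripts were tested on simulated data.

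The genes and lists were chosen with earlier results of these data known. Genes named are the 3 with most UMIs per structural group, the 5 most selective per class, those past 2-fold between bands, those nearest to no difference in excitatory-like nuclei, and those leading a vascular subtype. Single neuron clusters, COL12A1 and COL18A1 were described after their values were seen. The values of 1 of the 77 genes are not reported here.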

Additional observations from a re-analysis of the deposited data

Results flagged for a closer look

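For 7 genes the log2 ratio of deeper to upper band lay above 0 in one class and below 0 in another. Both ratios had to be at least 0.5 in size, with the counting interval on one side of 0. Genes with smaller opposite ratios were not counted. The rule was applied to the collagen, laminin and ADAMTS genes only, so no share over all genes stands beside this count. None of these differences between classes was tested, since each band is 1 library. The clusters of a class were present in different shares in the 2 libraries, so the ratio after weighting to the upper band's clusters is given where it could be computed. COL4A1 had 0.99 in vascular-like nuclei, -1.30 in excitatory-like nuclei and -1.02 in inhibitory-like nuclei. After weighting it had -0.11 (-0.43 to 0.21) in excitatory-like and -1.11 in inhibitory-like nuclei. COL4A2 had 0.71 in vascular-like and -1.46 in excitatory-like nuclei, the latter -0.33 (-0.59 to -0.06) after weighting. The vascular subtypes also differed in share, and COL4A1 stood at 261 and 474 CPM in endothelial-like nuclei (23 and 20 UMIs) and COL4A2 at 329 and 379 CPM (29 and 16 UMIs). COL5A2 had 0.59 in astrocyte-like and -2.66 in vascular-like nuclei, the latter on 119 and 5 UMIs, and the former became 0.29 (-0.12 to 0.70). COL10A1 had 0.64 in oligodendrocyte-like and -0.99 in excitatory-like nuclei, which became 0.58 and -0.39 (-0.84 to 0.06). COL25A1 had 0.77 in excitatory-like and -0.82 in inhibitory-like nuclei, which became -0.20 (-0.44 to 0.04) and -0.72, so that the signs were no longer opposite. ADAMTS9 had 0.58 in astrocyte-like and -1.18 in inhibitory-like nuclei, which became 0.11 (-0.27 to 0.49) and -1.15. ADAMTS17 had 0.55 in excitatory-like and -1.83 in vascular-like nuclei, the latter on 80 and 6 UMIs. The former became -0.12 (-0.23 to -0.01) after weighting, and the latter was 0.030 when vascular nuclei were chosen per nucleus, so that neither sign held in every setting.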

How the results depend on the processing

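No paired analysis was possible because each band had a single library, and for the same reason no library could be left out. Of the main results, 55 of the values under other settings stayed near the reported ones and 8 moved. The 26 genes led by vascular-like nuclei became 12 when vascular nuclei were chosen per nucleus (64 and 40 nuclei) and 15 after thinning. The UMI minimums were unchanged in both settings, so genes could also leave this count for want of UMIs. The 4 inhibitory-like genes past 2-fold became 2 after thinning, ADAMTS9 and COL11A1, and 2 with a minimum of 200 UMIs, ADAMTS9 and ADAMTSL3. The 7 excitatory-like genes past 2-fold became 2 when weighted to the upper band's clusters and 1 when weighted to the deeper band's, both chosen after seeing the data. The basement membrane log2 ratio of -0.23 became -0.21 without doublet removal, -0.20 with 2 times as many doublets removed, -0.42 after thinning and -0.54 when CPM was averaged over nuclei.

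On weighting to the upper band's clusters 23 of 60 ratios in excitatory-like nuclei changed sign, and for 7 of them the intervals lay clear of 0 on opposite sides before and after. Sign changes were not counted over all genes. Weighted to the upper band's clusters, ADAMTS1 was 0.058, ADAMTS17 -0.12, ADAMTS3 0.10, ADAMTSL2 0.15, COL14A1 -0.066, COL25A1 -0.20, COL27A1 -0.31, COL5A3 0.54 and LAMB1 -0.10. ADAMTS19 went from 0.34 to -0.35 (-0.59 to -0.12), ADAMTS18 from -0.50 to 0.40, COL8A1 from -0.28 to 0.49 and ADAMTS8 from -0.47 to 0.16. Weighted to the deeper band's, ADAMTS20 was -0.023, COL25A1 -0.16 and COL27A1 -0.14. COL22A1 was 0.30 and COL27A1 -0.35 without doublet removal, COL24A1 0.16 with 2 times as many doublets removed and COL4A3 0.030 after thinning. In vascular-like nuclei chosen per nucleus ADAMTS17 was 0.030. The cause was not tested.

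The same leading class was kept by 37 of the 71 genes under every other setting for classes and levels. How many of all genes kept theirs was not counted. The vascular-like and microglia-like classes were small, and for genes under 50 UMIs in a class no ratio is given at this depth.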
